A study of Mus musculus with 16 samples.

Results

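The genes of the clathrin coat, the coat adaptors and the exocyst were followed across the jejunum and ileum of suckling and post-weaning mice. Members were taken by symbol: the subunits of the adaptor protein complexes AP-1 to AP-5, the clathrin chains, the epsins with their relative Clint1, and the exocyst subunits with their relatives. The rule found 46 genes of the 24421 in the deposited count tables. All samples were wild-type C57BL6/J mice with no treatment, and each library held epithelial cells released with EDTA from a short segment of gut. The groups were P6 jejunum, P6 ileum, P36 jejunum and P36 ileum, where P6 and P36 are postnatal days 6 and 36. Both segments came from the same animal, with 4 mice at each age (2 males and 2 females), so each group held 4 libraries and the 16 libraries came from 8 mice.

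Coated vesicles carry cargo between membranes. Clathrin, built of heavy and light chains, forms the outer lattice, and adaptor complexes link it to membrane and cargo: AP-2 and the epsins act at the plasma membrane, and AP-1 and Clint1 at the trans-Golgi network and endosomes. AP-3 serves endosome-to-lysosome sorting, and AP-4 and AP-5 act in Golgi and late endosomal sorting without clathrin. Each adaptor complex joins a pair of large subunits with a medium (mu) and a small (sigma) subunit, and several of these come as paralogues, of which the mu 1B subunit encoded by Ap1m2 is known from epithelia. The exocyst is an octameric tether that holds secretory vesicles at the plasma membrane before fusion. Neonatal enterocytes take up milk macromolecules from the lumen, and the study asked how this work is divided between jejunum and ileum before weaning.

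The sequences just upstream of the transcript start are given for the 3 genes with the widest P6 difference between regions that had a RefSeq promoter entry, Ap1s3, Exoc3l4 and Exoc6b, and for Ap5z1, the only gene given below library by library whose window held a searched motif. They are the 250 bases before the start in GRCm38.p6, read in the direction of the gene from RefSeq, with the CACGTG motif in capitals.
Ap1s3, chr1:79671973-79672222, minus strand: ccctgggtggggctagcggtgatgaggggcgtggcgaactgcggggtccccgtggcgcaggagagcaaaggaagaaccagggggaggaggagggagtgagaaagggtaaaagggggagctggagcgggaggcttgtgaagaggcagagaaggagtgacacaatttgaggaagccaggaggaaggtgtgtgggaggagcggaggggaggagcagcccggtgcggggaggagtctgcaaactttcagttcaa
Exoc3l4, chr12:111417180-111417429, plus strand: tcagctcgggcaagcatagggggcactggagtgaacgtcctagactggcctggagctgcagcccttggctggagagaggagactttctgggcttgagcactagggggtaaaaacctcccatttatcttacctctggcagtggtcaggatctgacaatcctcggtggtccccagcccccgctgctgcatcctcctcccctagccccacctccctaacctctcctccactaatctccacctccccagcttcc
Exoc6b, chr6:85069514-85069763, minus strand: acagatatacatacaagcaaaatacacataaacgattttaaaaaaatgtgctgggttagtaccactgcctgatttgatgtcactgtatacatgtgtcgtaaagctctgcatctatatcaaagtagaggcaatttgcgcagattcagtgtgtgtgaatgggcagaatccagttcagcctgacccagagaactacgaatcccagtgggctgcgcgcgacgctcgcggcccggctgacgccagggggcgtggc
Ap5z1, chr5:142463681-142463930, plus strand: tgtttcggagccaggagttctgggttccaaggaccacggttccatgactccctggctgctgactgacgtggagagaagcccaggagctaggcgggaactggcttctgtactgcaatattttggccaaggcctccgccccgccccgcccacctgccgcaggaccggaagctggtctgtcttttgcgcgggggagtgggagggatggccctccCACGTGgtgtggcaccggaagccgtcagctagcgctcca
Of the 46 genes, 40 matched an entry of the table. Clint1, Ap3m2, Epn3, Ap1m1, Exoc3l and Ap3s1 had no entry. In windows of 300 bases, reaching 50 bases past the start, the members' promoters held a median of 20 CpG dinucleotides, against 7 over all 32851 windows. The Exoc3l4 window was CpG-poor among the members, with 4, while the Ap1s3 window held 11, Ap5z1 19 and Exoc6b 20. CACGTG, on either strand, was found for 5 of the 40 matched members (Ap1s2, Ap2m1, Ap5z1, Epn1 and Exoc1). It was in 9 of the members' 47 windows and in 7.15% of all windows. CAAAGTC, the core of HNF4 sites, was found in Clta, in 1 of the 47 windows, and in 4.44% of all windows. GAAAGTG, a PRDM1 and IRF type motif, was found in Cltc, Exoc2 and Exoc4, in 3 of the 47 windows, and in 4.81% of all. TTTATGG, a CDX type motif, was found in none of the members' windows and in 2.75% of all. No 2 of these motifs overlapped in the sequences printed.

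The libraries held 12159237 to 25947276 counted reads, and the members took 0.441 to 0.560% of them. P6 ileum replicate 4 stood apart. Across the 44 members that could be tested, its deviation from the other 3 P6 ileum libraries fell with the GC content of the exons (Spearman's rho across genes -0.92, and -0.78 across 12948 genes, which share library and depth and are not independent). Ap5b1, an AP-5 large subunit, stood at 1.37 CPM (counted reads relative to a fixed library total, after TMM scaling) in that library and at 15.9 to 26.4 CPM in the other 3. The low-GC clathrin heavy chain gene Cltc stood at 1157 CPM there against 535 to 714 CPM. P6 ileum replicate 2 stood apart in markers of other cell types: its 5 smooth muscle markers summed to 218 CPM, its 6 fibroblast markers to 245 CPM and its 4 endothelial markers to 35.7 CPM, against at most 1.66, 17.7 and 5.93 CPM in the P6 jejunum and 3.38, 42.2 and 5.39 CPM in the other 3 P6 ileum libraries. Counts are therefore given with and without these libraries. All 8 enterocyte markers were detected in every group. Their sum ran from 91458 to 113251 CPM in the P6 jejunum, 12369 to 23774 CPM in the P6 ileum, 24605 to 32266 CPM in the P36 jejunum, and 5560 to 23451 CPM in the P36 ileum. Apoa4 alone made up 63639 to 81230 CPM of it in the P6 jejunum, while it stood at 3543 to 10821 CPM in the P6 ileum. The epithelial adhesion genes of the list did not follow the sum, since Epcam was at 1137 to 1380 CPM in the P6 jejunum, below the 1747 to 2139 CPM of the P6 ileum, and Cdh1 at 806 to 832 CPM beside 792 to 867 CPM. The part of these markers in the regional differences below was not tested. In bulk RNA of this kind, fewer cells of a type and less RNA per cell cannot be told apart.

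**Figure D1:**
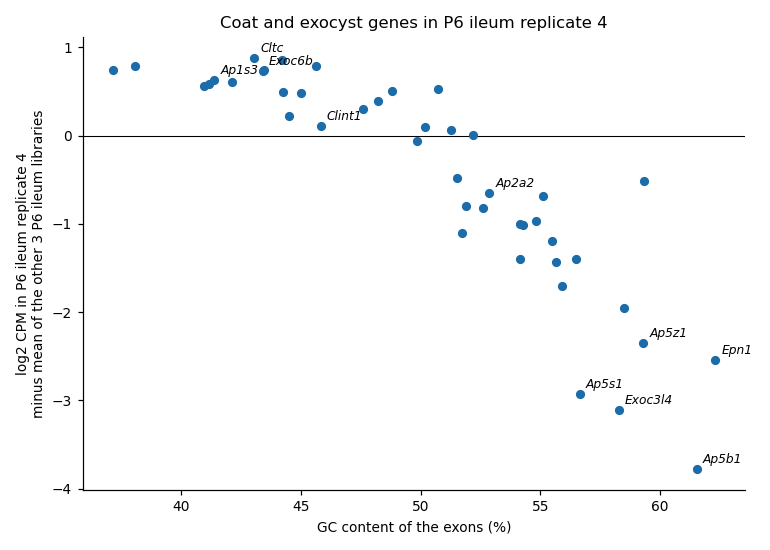
Each point is 1 of the 44 tested coat and exocyst genes: the x axis gives the GC content of its exons in percent, and the y axis its log2 CPM in P6 ileum replicate 4 minus the mean of the other 3 P6 ileum libraries. The GC-rich genes lie below 0, down to Ap5b1 at -3.78, while Cltc at 43.1% GC lies at 0.88.

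Most of this machinery was expressed in every group. Levels can be compared between genes only per exon length, as TPM (reads per exon length, scaled to the same total in each library). TPM are not scaled by TMM, so TPM differences between groups can also reflect library composition. In the P6 jejunum, Clint1 was the most abundant member, at 391 ± 41.7 TPM (SD, n = 4), followed by Ap1m2 at 360 ± 14.5 TPM and the clathrin light chain gene Clta at 319 ± 39.5 TPM. These neighbours differed by about their spread, so the order among them is loose. In the P36 jejunum, the clathrin chains led, with Cltc at 293 ± 30.7 TPM and Clta at 276 ± 8.85 TPM. The same genes led in the P36 ileum, with Clta at 279 ± 19.2 TPM and Cltc at 255 ± 28.0 TPM. At the other end, 2 genes were too low to test: Ap3b2, the neuronal AP-3 beta subunit, with 23 to 39 reads per group, and Exoc3l, with 3 to 15.

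Between the P6 jejunum and P6 ileum, 8 of the 44 tested members passed an adjusted p of 0.05, or 18.2%, against 25.9% of all 13429 genes. The members' share was thus not above the background. Of the 8, 5 were higher in the jejunum (11.1% of all genes were), while 3 were so in the ileum (14.8% of all genes were). Ap1s3, Exoc3l4, Epn3, Clint1 and Ap2a2 were higher in the jejunum, and Exoc6b, Exoc4 and Ap2b1 in the ileum. Of the members, 3 (6.82%) were called with a change above 2 on the log2 scale, close to the 6.5% of all genes beyond that limit, and Epn3, 1 of the 3, rests on few reads. The median of the members' log2 fold changes was 0.04, against -0.05 over all genes. Scaling by library totals, which lowered all P6 log2 ratios of jejunum to ileum by a median of 0.29, gave 14 calls (31.8%, against 37.0% of all genes), with 4 on the jejunal and 10 on the ileal side. Without P6 ileum replicate 4 there were 11 calls (24.4% of the 45 members then tested, against 32.6%), 8 of them higher in the jejunum. Without P6 ileum replicate 2 there were 8 (18.2%, against 24.9%), with 5 higher in the jejunum. With each library's GC trend around its own group mean removed, there were 20 (45.5%, against 40.0%), of which 15 were higher in the jejunum. This correction narrows the spread within groups but keeps the group means, so the P6 ileum mean still carries replicate 4.

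**Figure D2:**
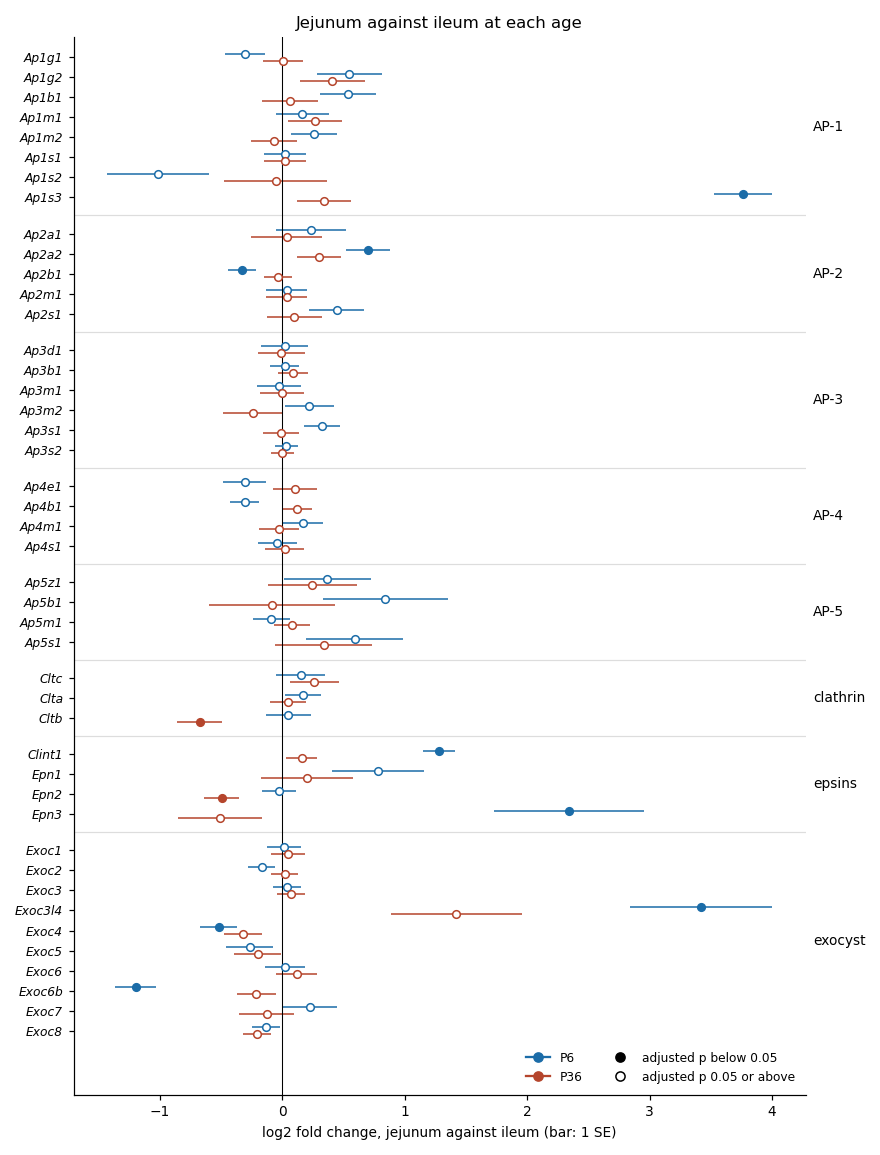
The log2 fold change of jejunum against ileum (x axis, bars 1 SE, n = 4 libraries per group) is drawn for each tested member, grouped by complex, at P6 in blue and at P36 in red, with filled points for an adjusted p below 0.05. Ap1s3, Exoc3l4, Epn3 and Clint1 stand to the right at P6, Exoc6b stands to the left, and at P36 only Cltb and Epn2 are filled.

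Ap1s3 and Clint1, both of which belong to the Golgi and endosomal AP-1 pathway, and Exoc3l4 were named in the study as trafficking genes of the jejunum from these same samples. Their direction here is therefore not independent evidence. Ap1s3, a sigma subunit of AP-1, lies at chr1:79606876-79671972 on the minus strand of mm10. Its levels were 149, 113, 116 and 114 CPM in P6 jejunum replicates 1 to 4 and 10.0, 6.89, 7.16 and 12.3 CPM in the P6 ileum. Every P6 jejunum library stood well above every P6 ileum library. The log2 fold change was 3.76 (SE 0.24, adjusted p = 3.07e-08), and the jejunum exceeded the ileum of the same mouse 9.25 to 16.4 times. At P36 the levels were 11.4, 9.35, 8.13 and 9.54 CPM in the jejunum and 4.75, 8.05, 9.88 and 7.60 CPM in the ileum. These overlapped (log2 ratio 0.34, SE 0.22, adjusted p = 0.35). The P6 jejunum alone was thus high among the 4 groups. The regional difference was larger at P6 than at P36 by 3.42 on the log2 scale (SE 0.31, adjusted p = 5.88e-06 for the interaction of region and age).

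The other AP-1 sigma genes did not share this pattern. Ap1s1 was the main sigma gene in all groups, at 206 ± 2.64 TPM in the P6 jejunum and 269 ± 68.7 TPM in the P6 ileum. With TMM scaling it stood at 124 to 136 CPM in the P6 jejunum and 75.6 to 165 CPM in the P6 ileum. Its log2 fold change between regions at P6 was 0.02 (SE 0.17, adjusted p = 0.94). Ap1s2 stayed at 3.04 CPM or less in every library. The share of Ap1s3 in the summed TPM of the 3 sigma genes was 29.2 ± 2.79% in the P6 jejunum. It was 3.45 ± 2.22% in the P6 ileum, 3.30 ± 0.348% in the P36 jejunum, with 2.64 ± 0.589% in the ileum of that age, and no library outside the P6 jejunum passed 6.68%. Of the 8 AP-1 genes, Ap1s3 was the only one called between regions at P6. Ap1b1 and Ap1g2, a large subunit each, had log2 fold changes of 0.53 (SE 0.23, adjusted p = 0.0985) and 0.55 (SE 0.26, adjusted p = 0.14), and both had an adjusted p below 0.05 after the GC correction. That correction keeps P6 ileum replicate 4 in the group mean, where Ap1b1 stood at 111 CPM and Ap1g2 at 46.7 CPM in that library. The other P6 ileum libraries held 281 to 315 CPM and 138 to 164 CPM.

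**Figure D3:**
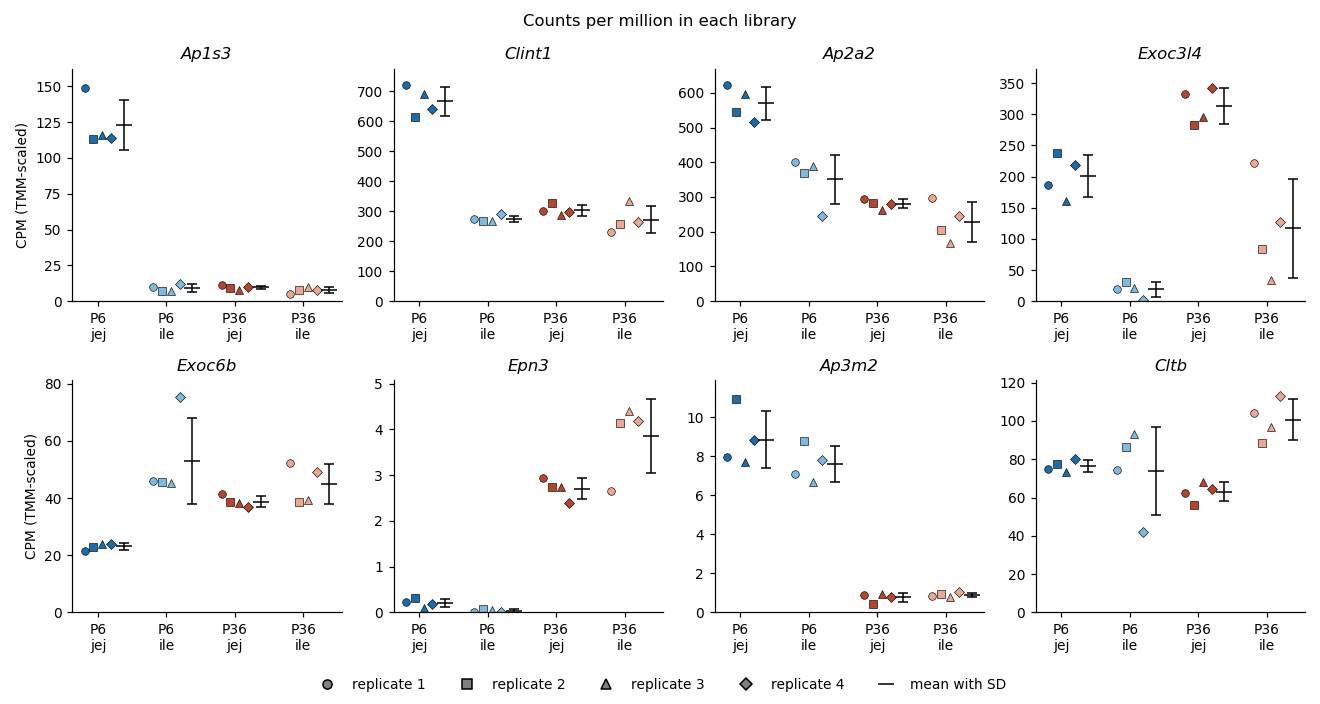
CPM (y axes, from 0, scaled by TMM) of 8 members are drawn for every library, with a symbol for each replicate number, the same number marking the same mouse within an age, and the mean with SD at the right of each group. Ap1s3 and Clint1 are high only in the P6 jejunum, Exoc3l4 is high in the jejunum at both ages, and Epn3 and Ap3m2 separate the ages.

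Clint1, an epsin-like adaptor of the trans-Golgi network, lies at chr11:45851964-45910625. It stood at 721, 613, 691 and 640 CPM in the P6 jejunum against 273, 267, 267 and 291 CPM in the P6 ileum. No libraries overlapped, and the log2 fold change was 1.28 (SE 0.13, adjusted p = 2.92e-06). At P36 it stood at 300.4, 329, 286 and 298 CPM in the jejunum and 232, 256, 335 and 263 CPM in the ileum, close to the P6 ileum. The P36 difference was 0.16 (SE 0.13, adjusted p = 0.451), and the interaction was 1.12 (SE 0.18, adjusted p = 0.000899). Like Ap1s3, Clint1 fell with age in the jejunum, by 1.13 on the log2 scale (SE 0.13, adjusted p = 1.78e-06). In the ileum its age difference was -0.01 (SE 0.13, adjusted p = 0.932).

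Exoc3l4, a relative of the exocyst subunit gene Exoc3, lies at chr12:111417430-111431680. Its levels were 186, 237, 162 and 219 CPM in the P6 jejunum against 19.8, 30.9, 21.6 and 2.65 CPM in the P6 ileum. The lowest was the library that stood apart with GC content, and the regions did not overlap without it either. The log2 fold change was 3.42 (SE 0.58, adjusted p = 0.000441), and 3.06 (SE 0.45) without P6 ileum replicate 4. At P36 the jejunum held 333, 282, 295 and 342 CPM and the ileum 222, 84.2, 34.6 and 127 CPM. Here too every jejunum library was above every ileum library, but the ileum libraries were spread widely and the difference of 1.42 (SE 0.54) did not pass (adjusted p = 0.0872). Over the alternatives that leave out a library it ranged from 1.12 to 1.93, and it passed without P6 ileum replicate 4 (adjusted p = 0.0112) and without P36 ileum replicate 1, as well as in DESeq2. The interaction was 2.00 (SE 0.76, adjusted p = 0.12), so a change of the regional difference with age was not shown. In the ileum, Exoc3l4 rose with age by 2.64 on the log2 scale (SE 0.56, adjusted p = 0.000917).

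Exoc3 itself was level, at 49.7 to 69.3 CPM over all 16 libraries, and none of its contrasts was called. In the summed TPM of Exoc3, Exoc3l and Exoc3l4, the share of Exoc3l4 was 79.1 to 84.7% in the P6 jejunum against 84.1 to 88.6% in the P36 jejunum. In the ileum the share was 33.0, 40.5, 36.2 and 4.96% at P6 and 83.6, 64.7, 43.7 and 73.6% at P36. The P6 ileum was therefore the only group in which Exoc3 exceeded Exoc3l4 in all 4 libraries.

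**Figure D4:**
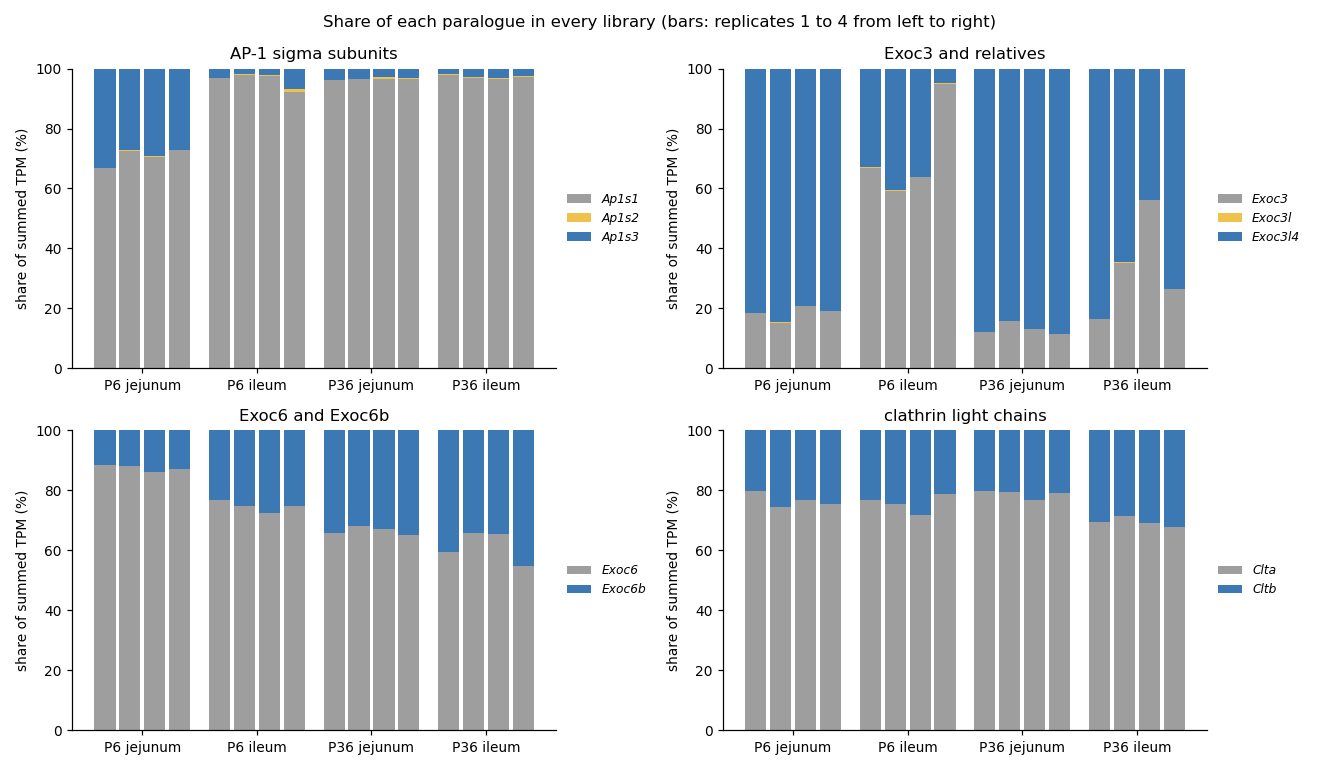
Stacked bars give the percentage of summed TPM held by each paralogue in each of the 16 libraries, with replicates 1 to 4 from left to right within each group. Ap1s3 takes 27.1 to 33.1% of the AP-1 sigma total in the P6 jejunum and at most 6.68% elsewhere, the Exoc6b share rises from 11.6 to 13.8% in the P6 jejunum to at least 31.8% at P36, and the Cltb share is largest in the P36 ileum.

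Epn3, an epsin of epithelial tissues, was close to absent at P6. Its counts were 18 reads in the P6 jejunum (2 to 7 per library) and 3 reads in the P6 ileum, where 2 libraries had none. The ratio of the P6 regions was 5.79, with an exact 95% interval of 1.69 to 30.7 that covers counting error only. At P36 it reached 2.94, 2.74, 2.74 and 2.40 CPM in the jejunum and 2.65, 4.14, 4.41 and 4.19 CPM in the ileum. All P36 libraries were thus above all P6 libraries, and the regions overlapped at P36 (log2 ratio -0.51, SE 0.34, adjusted p = 0.362). From P6 to P36 the count ratio was 12.8 in the jejunum (7.91 to 22.0) and 106 in the ileum (35.97 to 518). The interaction of region and age passed (2.85, SE 0.70, adjusted p = 0.0187), but it rests on the 3 P6 ileum reads and was at adjusted p = 0.052 without P6 jejunum replicate 2. Epn1, the most abundant epsin, did not pass between regions or ages. Its log2 fold change at P6 was 0.78 (SE 0.38, adjusted p = 0.143).

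Ap2a2, an alpha subunit of the endocytic AP-2 adaptor, was higher in the P6 jejunum, at 621, 546, 597 and 516 CPM against 401, 369, 388 and 246 CPM in the P6 ileum. The log2 fold change was 0.70 (SE 0.18, adjusted p = 0.00945), and 0.57 without the low P6 ileum replicate 4. Scaling by library totals took its adjusted p to 0.0518, at 0.41 (SE 0.16). Ap2b1, the beta subunit of the same complex, went the other way by a small amount, at -0.33 (SE 0.11, adjusted p = 0.0426). That call was lost in 10 of the 16 fits that left out a library. Of the 17 tested AP-3, AP-4, AP-5 and clathrin chain genes, edgeR called 0 between regions at P6, where 2 had an unadjusted p below 0.05 (Ap3s1 and Ap4b1) and DESeq2 called 1, Ap4b1, higher in the ileum.

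Among the exocyst genes, Exoc6b was higher in the P6 ileum. This paralogue of Exoc6 lies at chr6:84618486-85069513 on the minus strand. It stood at 21.5, 22.8, 24.0 and 24.0 CPM in the P6 jejunum against 45.8, 45.7, 45.2 and 75.5 CPM in the P6 ileum. The regions did not overlap, and 3 of the ileum libraries lay close together, with replicate 4 far above them. The log2 fold change was -1.20 (SE 0.17, adjusted p = 6.81e-05), and -0.98 (SE 0.10) without that library. At P36 the levels were 41.4, 38.6, 38.2 and 36.8 CPM in the jejunum and 52.4, 38.7, 39.2 and 49.1 CPM in the ileum, which overlapped (-0.21, SE 0.16, adjusted p = 0.436). The interaction was -0.99 (SE 0.23, adjusted p = 0.0136). Exoc4, a core subunit, was higher in the P6 ileum by a smaller amount (-0.52, SE 0.15, adjusted p = 0.0201), a call that 2 of the 16 fits that left out a library lost. The other core subunit genes, Exoc1, Exoc2, Exoc3, Exoc5, Exoc6, Exoc7 and Exoc8, lay between -0.27 and 0.22 with none called. Exoc5 overlaps the start of Ap5m1 on the opposite strand, and reads were assigned by strand.

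At P36, 2 of the 44 members were called between regions (4.55%, against 16.1% of all genes), both higher in the ileum, where 7.8% of all genes were. In edgeR 0 members were higher in the P36 jejunum (8.3% of all genes were), where Exoc3l4 had an unadjusted p below 0.05 and was the 1 call of DESeq2 in that direction. No member changed by more than 2 on the log2 scale with a call, against 3.6% of all genes. Cltb, a clathrin light chain gene, stood at 62.6, 56.3, 68.3 and 64.6 CPM in the jejunum and 104, 88.5, 96.9 and 113 CPM in the ileum. No libraries overlapped, and the log2 fold change was -0.68 (SE 0.19, adjusted p = 0.0199). The call was lost without P36 jejunum replicate 1 or 2 or P36 ileum replicate 4, with a highest adjusted p of 0.0642. The share of Cltb in the light chain TPM was 30.6 ± 1.498% in the P36 ileum and 21.1 ± 1.48% in the P36 jejunum, while Clta, the other light chain gene, differed by 0.05 (SE 0.15, adjusted p = 0.881). Epn2 was 8.47 ± 0.454 CPM in the P36 jejunum against 11.9 ± 1.34 CPM in the P36 ileum (-0.50, SE 0.14, adjusted p = 0.0256), a call that 5 of the 16 fits that left out a library lost. The members' log2 fold changes were small at this age, with a median size of 0.10 against 0.32 over all genes.

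The regional difference itself changed with age for 4 of the 44 members (9.09%, against 8.69% of all genes). Of these, 3 had the larger jejunal excess at P6 (3.68% of all genes did), namely Ap1s3, Clint1 and Epn3, and Exoc6b had the larger ileal excess (5.01% of all genes did). Without P6 ileum replicate 4 there were 6 (13.3%, against 14.0%), the added genes being Cltb and Ap3s1. With the mouse as a block, the same 4 genes were called.

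Age was compared within each region. The age and region comparisons share libraries and are not independent of each other. In the jejunum, 19 of the 44 members were called between P36 and P6 (43.2%, against 51.6% of all genes), 4 higher (24.7% of all genes were) and 15 lower (26.9%) at P36. In the ileum 16 were called (36.4%, against 55.7%), 5 higher (25.5%) and 11 lower (30.1%). In both regions 3 were called with a log2 change above 2 in size, or 6.82%, where 16.4% of all genes were, in each region. The median log2 fold change of the members was -0.12 in the jejunum and -0.20 in the ileum, against -0.01 and -0.03 over all genes. Without P6 ileum replicate 4 the calls were 24 in each region (53.3%, against 62.6% and 62.0% of all genes). Without P6 ileum replicate 2 they were 19 in each (43.2%, against 51.9% and 54.6%). Scaling by library totals gave 15 calls in the jejunum (34.1%, against 50.8%), 4 higher and 11 lower, and 19 in the ileum (43.2%, against 54.9%), 4 higher and 15 lower. Markers of other cell types moved with age as well. The median summed level of the 4 Paneth cell markers went from 17.9 to 3600 CPM in the jejunum and from 37.9 to 5114 CPM in the ileum, and that of the 5 goblet cell markers from 1836 to 7994 and from 3347 to 13782 CPM. The 4 tuft cell markers went from 0.738 to 20.1 and from 1.53 to 10.6 CPM. The sum of the 5 macrophage markers went the other way, from 464 to 5.02 and from 269 to 5.06 CPM. Csf1r alone made up most of it at P6, at 415 to 498 CPM in the jejunum and 152 to 333 CPM in the ileum. Cd68 fell as well, from 5.57 to 11.4 CPM in the P6 jejunum to 1.53 to 3.82 CPM in the P36 jejunum. Adgre1, C1qa and C1qb stayed at 4.78 CPM or less in every library. The part of these cell type markers in the age differences was not tested.

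**Figure D5:**
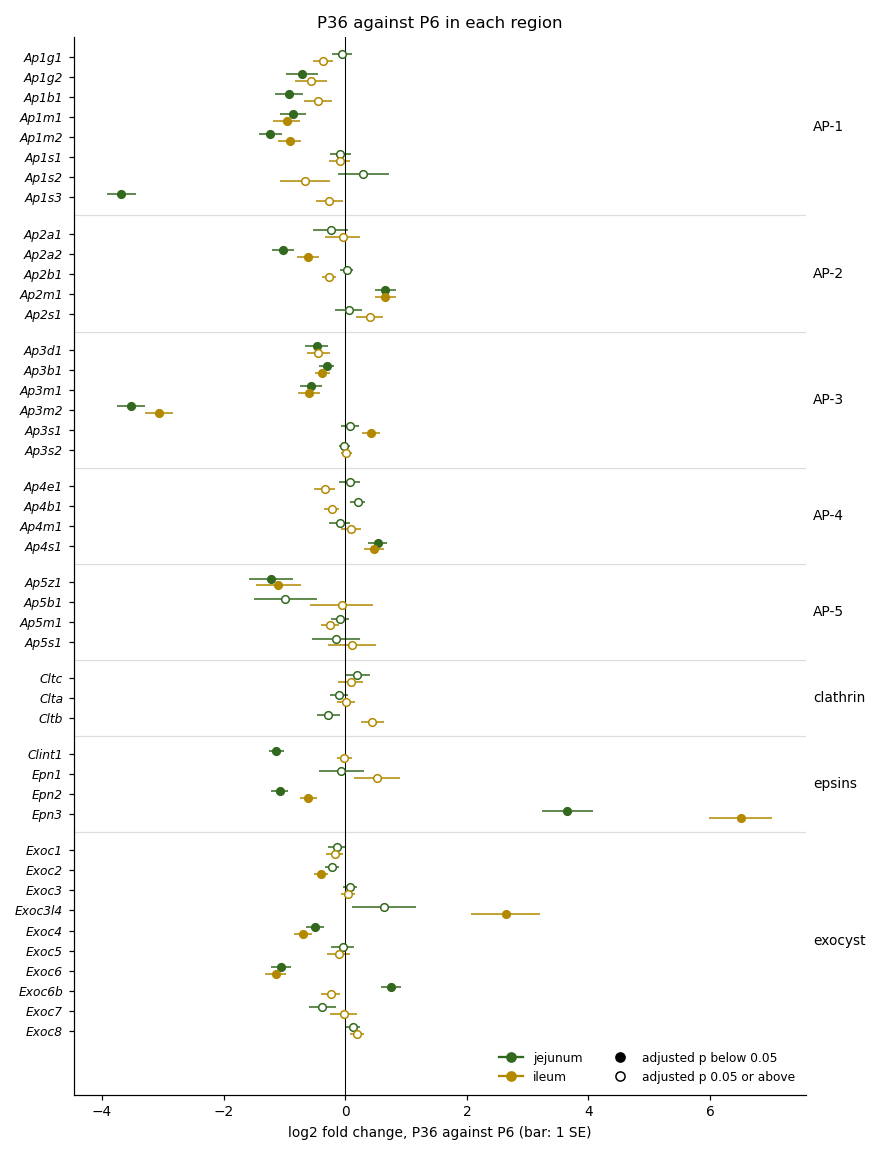
The log2 fold change of P36 against P6 (x axis, bars 1 SE, n = 4 libraries per group) is drawn for each tested member, grouped by complex, in the jejunum in green and the ileum in gold, with filled points for an adjusted p below 0.05. Epn3 stands far to the right in both regions, Ap3m2 far to the left in both, and Ap1s3 far to the left in the jejunum alone.

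In AP-1, 5 of the 8 genes fell in the jejunum (Ap1s3, Ap1m2, Ap1b1, Ap1m1 and Ap1g2), and in the ileum 2 did (Ap1m1 and Ap1m2). The Ap1g2 call was lost in 8 of the 16 fits that left out a library. In AP-3, 4 of the 6 tested genes fell in the jejunum and 3 in the ileum. Over all genes, 26.9% were called lower at P36 in the jejunum and 30.1% in the ileum, and no complex was tested as a whole. Ap1m2, the epithelial mu subunit, stood at 321, 321, 306 and 307 CPM in the P6 jejunum against 132, 126, 133 and 144 CPM in the P36 jejunum. The P6 level was higher in every library, and it fell by 1.23 on the log2 scale (SE 0.19, adjusted p = 5.41e-05). In the ileum it stood at 291, 333, 287 and 141 CPM at P6 and 136, 132, 148 and 144 CPM at P36. P6 ileum replicate 4 lay within the P36 range, and the fall was 0.91 (SE 0.19, adjusted p = 0.000749). The summed TPM of the 8 AP-1 genes was 1061 ± 44.0 in the P6 jejunum, 1105 ± 274 in the P6 ileum, 562 ± 14.5 in the P36 jejunum, with 560 ± 37.8 in the ileum of that age. In these TPM, which are not scaled by TMM, the lowest P6 library (697) was above the highest P36 library (602). With TMM scaling that order did not hold for every gene. P6 ileum replicate 4 stood below every P36 library for Ap1b1 (111 CPM), Ap1g2 (46.7 CPM) and Ap1s1 (75.6 CPM). It stood within the P36 range for Ap1m1 and Ap1m2, and above every P36 library for Ap1g1, Ap1s2 and Ap1s3. The TPM order is therefore not read as a separation of the ages. Ap1s3 fell in the jejunum by 3.68 (SE 0.24, adjusted p = 3.20e-09) and in the ileum changed by -0.26 (SE 0.22, adjusted p = 0.33).

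In AP-3, Ap3m2, an alternative mu subunit, had the widest change. It stood at 7.94, 10.9, 7.72 and 8.81 CPM in the P6 jejunum, against 7.11, 8.79, 6.67 and 7.80 CPM in the ileum of that age. At P36 no library of either region passed 1.03 CPM. The gene fell by 3.53 in the jejunum (SE 0.24, adjusted p = 5.22e-09), and in the ileum it fell by 3.06 (SE 0.23, adjusted p = 2.41e-08), and P6 ileum replicate 4, at 7.80 CPM, did not stand apart here. Its share of the AP-3 mu TPM went from 8.13 ± 1.76% to 1.12 ± 0.368% in the jejunum and from 7.38 ± 2.45% to 1.33 ± 0.199% in the ileum, Ap3m1 being the main mu gene throughout. Ap3m1 fell in both regions, by 0.57 in the jejunum (adjusted p = 0.0146) and by 0.60 in the ileum (adjusted p = 0.0105). Ap3b1 and Ap3d1 were called lower in the jejunum at adjusted p = 0.047 and 0.0487, and each call was lost in 12 of the 16 fits that left out a library. Ap3b1 was also called lower in the ileum (adjusted p = 0.0156). Ap3s1, a sigma subunit, rose in the ileum by 0.42 (adjusted p = 0.0233).

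In AP-2 the subunits moved apart with age. Ap2m1, the mu subunit that binds cargo, rose from 186 ± 11.8 to 294 ± 14.9 CPM in the jejunum and from 182 ± 49.3 to 287 ± 29.4 CPM in the ileum. Its log2 fold change was 0.66 in both regions (SE 0.17, adjusted p = 0.00378 and 0.00349). Ap2a2 fell by 1.02 in the jejunum (SE 0.18, adjusted p = 0.000203) and, in the ileum, by 0.62 (SE 0.18, adjusted p = 0.00842). The other AP-2 genes, Ap2a1, Ap2b1 and Ap2s1, were not called with age in edgeR, and Ap2b1 in the ileum was called by DESeq2. Ap4s1, the AP-4 sigma subunit, rose by 0.53 and 0.47 (adjusted p = 0.0112 and 0.0211), and no other AP-4 gene was called. Its ileal call was lost in 3 of the 16 fits that left out a library.

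Ap5z1, which encodes the large zeta subunit of AP-5, was at 49.7, 55.9, 49.3 and 47.4 CPM in the P6 jejunum against 21.2, 20.9, 21.7 and 22.8 CPM in the P36 jejunum. It fell by 1.22 there (SE 0.36, adjusted p = 0.0101), with no overlap. In the ileum it was at 43.3, 49.0, 55.0 and 9.51 CPM at P6 and 21.9, 15.7, 11.8 and 24.0 CPM at P36. P6 ileum replicate 4 lay below every P36 library, and the fall was 1.10 (SE 0.36, adjusted p = 0.0173). Without that library it was 1.43 (SE 0.18, adjusted p = 7.01e-06). The ileal call was lost in 2 of the 16 fits that left out a library, with a highest adjusted p of 0.0600. The GC-rich AP-5 genes Ap5b1 and Ap5s1, which P6 ileum replicate 4 held at 1.37 and 4.12 CPM, were not called in any contrast. Both were called between regions at P6 after the GC correction, which keeps that library in the P6 ileum mean. In P6 mice 1 to 4 the ratios of jejunum to ileum were 1.45, 1.10, 0.97 and 9.72 for Ap5s1. For Ap5b1 they were 1.49, 1.68, 1.22 and 18.2.

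In edgeR the 3 clathrin chains had 0 calls with age in either region, where 1, Cltb in the ileum, had an unadjusted p below 0.05 and was called by DESeq2. Cltc, the heavy chain gene, was at 786 to 922 CPM in the P6 jejunum against 863 to 1065 CPM in the P36 jejunum, and its log2 fold change was 0.20 (SE 0.20, adjusted p = 0.436). Cltb had 0.45 in the ileum (SE 0.18, adjusted p = 0.051). Among the epsins, Epn2 fell in the jejunum by 1.08 (SE 0.14, adjusted p = 1.07e-05) and in the ileum by 0.61 (SE 0.14, adjusted p = 0.00167).

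In the exocyst, Exoc6 fell in both regions while its paralogue Exoc6b did not. Exoc6 stood at 82.0, 84.3, 75.1 and 81.1 CPM in the P6 jejunum against 40.2, 41.5, 39.1 and 34.5 CPM in the P36 jejunum, a fall of 1.05 (SE 0.17, adjusted p = 6.21e-05). In the ileum it stood at 76.5, 68.3, 59.4 and 113 CPM at P6 and 38.6, 37.2, 37.5 and 30.0 CPM at P36, a fall of 1.15 (SE 0.17, adjusted p = 2.60e-05). Neither region overlapped between ages. Exoc6b rose in the jejunum by 0.75 (SE 0.16, adjusted p = 0.00125), and its change in the ileum was -0.24 (SE 0.16, adjusted p = 0.22). Its share of the Exoc6 and Exoc6b TPM was 12.6 ± 0.997% in the P6 jejunum, 25.3 ± 1.85% in the P6 ileum, 33.4 ± 1.34% in the P36 jejunum, with 38.6 ± 5.23% in the ileum of that age. The shares of the P6 groups overlapped neither each other nor the P36 groups. Exoc4 fell in both regions, by 0.50 (adjusted p = 0.0131) and 0.69 (adjusted p = 0.00124), and Exoc2 fell in the ileum by 0.40 (adjusted p = 0.00618). The summed TPM of the 11 exocyst genes, relatives such as Exoc3l4 included, was level with age in the jejunum, at 334 ± 10.1 (P6) and 332 ± 4.17 (P36). For the ileum it was 337 ± 55.8 at P6 and 246 ± 46.6 at P36. These sums are not scaled by TMM, so the difference between the ileum groups can reflect library composition and is not read as a fall. With TMM scaling, 1 of the 10 tested exocyst genes was called higher and 3 lower at P36 in the ileum. Their median log2 fold change there was -0.14. Ileum libraries ran from 300 to 420 TPM at P6 and from 189 to 301 TPM at P36, a narrow overlap. The sum of the core subunits alone was not tested.

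The genes that work with these coats were read from 5 lists. Of 36 tested accessory factors of clathrin endocytosis, 4 were higher and 4 lower in the P6 jejunum than in the P6 ileum, and at P36 the counts were 6 and 1. These were 22.2% and 19.4% of the list, near the 25.9% and 16.1% of all genes. With age, 5 rose and 11 fell in the jejunum, and 3 rose and 15 fell in the ileum, or 16 and 18 of the 36, against 51.6% and 55.7% of all genes. Dab2, a cargo adaptor that recruits AP-2 for receptor uptake, fell from 807 ± 19.5 to 1.09 ± 0.863 CPM in the jejunum and from 1219 ± 259 to 1.52 ± 0.781 CPM in the ileum (adjusted p = 4.26e-10 and 4.92e-10). Aagab, a chaperone for the assembly of AP-1 and AP-2, fell by 1.32 and 1.11 (adjusted p = 1.47e-07 and 9.57e-07). Dnm3, a dynamin, was lower in the P6 jejunum than in the P6 ileum, with a log2 fold change of -3.93 (0.720 ± 0.142 against 11.1 ± 2.23 CPM, adjusted p = 3.75e-06).

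Of 30 partners of the Golgi and endosomal coats, 6 were higher and 4 lower in the P6 jejunum (33.3% of the list, against 25.9% of all genes). At P36 the counts were 2 and 2 (13.3%, against 16.1%). With age 5 rose and 14 fell in the jejunum, and 6 rose and 15 fell in the ileum (63.3% and 70.0% of the list, against 51.6% and 55.7% of all genes). Gga2, a monomeric adaptor of the trans-Golgi network, fell from 234 ± 16.6 to 5.60 ± 1.501 CPM in the jejunum and from 279.9 ± 36.8 to 6.43 ± 2.09 CPM in the ileum (adjusted p = 1.79e-10 and 1.81e-10). Its cargo receptor Igf2r, the mannose 6-phosphate receptor, fell by 2.44 and 2.78 (adjusted p = 5.64e-09 and 1.72e-09). Sort1, a sorting receptor, rose in the jejunum by 1.90 (adjusted p = 3.34e-08) and was higher in the ileum than in the jejunum at both ages.

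The COPI and COPII coats, which work between the endoplasmic reticulum and Golgi, stood on the jejunal side at P6. Of 22 tested, edgeR called 11 higher in the P6 jejunum, against 25.9% of all genes in either direction, and 0 lower (also 0 lower at an unadjusted p below 0.05 and in DESeq2), and at P36 the counts were 7 and 1, together 36.4%. The list's median log2 fold change was 0.62 at P6 and 0.35 at P36, against -0.05 and -0.04 over all genes. Sec24d, a COPII cargo subunit, was at 619 ± 25.7 CPM in the P6 jejunum against 89.2 ± 7.11 CPM in the ileum of that age (log2 ratio 2.80, SE 0.14, adjusted p = 3.17e-09). With age, 4 COP genes fell in the jejunum and edgeR called 0 higher, where 1 had an unadjusted p below 0.05 and DESeq2 called 1. In the ileum 5 rose and 3 fell. These were 18.2% and 36.4% of the list, below the shares of all genes.

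Of 32 regulators and partners of the exocyst, 3 were higher and 4 lower in the P6 jejunum (21.9% of the list, against 25.9% of all genes). At P36 the counts were 1 and 1 (6.25%, against 16.1%). Rab8a, a Rab GTPase of apical transport that the study also named from these samples, was higher in the jejunum at P6 (0.86, SE 0.13, adjusted p = 0.000142) and at P36 (0.47, SE 0.13, adjusted p = 0.0184). With age 8 rose and 11 fell in the jejunum (59.4%, against 51.6% of all genes), and 5 rose and 11 fell in the ileum (16 of 32, against 55.7%). Rab11fip5, a Rab11 effector of recycling endosomes, fell from 362 ± 27.3 to 0.360 ± 0.321 CPM in the jejunum (adjusted p = 1.17e-09). Of 24 genes of other tethering complexes, 2 were higher and 1 lower in the P6 jejunum (12.5%, against 25.9% of all genes). At P36 edgeR called 0, against 16.1% of all genes, with 2 at an unadjusted p below 0.05 and 1 called by DESeq2. With age 1 rose and 6 fell in the jejunum (29.2%, against 51.6%), and 4 rose and 6 fell in the ileum (41.7%, against 55.7%).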

How the data were processed

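RNA from epithelial cells of 16 intestinal segments was sequenced as stranded mRNA libraries. After trimming (Trimmomatic 0.38) and alignment to mm10 (STAR, 2.5.3 in the submitters' processing notes), the authors deposited read counts per gene from featureCounts (Subread 1.6.3), assigned by strand over exons. These counts were used as deposited. The 46 members were found by symbol. The members and the gene lists were chosen with earlier results of these data known.

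Genes passing edgeR's default filter on low counts (13429) were fitted with the quasi-likelihood test of edgeR 4.0.16 in R 4.3.3, with TMM scaling and a mean for each of the 4 groups. All p-values were adjusted by Benjamini-Hochberg over these genes, and a call is an adjusted p below 0.05. The authors' own threshold, an absolute log2 fold change above 2 as well, was an alternative. CPM are counts divided by TMM-scaled library sizes. TPM are counts divided by the files' exon length and scaled to the same total in each library, without TMM. Members given in every library were those called with an absolute log2 fold change above 1 in at least 1 region or age comparison, plus Ap1s3, Clint1 and Exoc3l4, which the study names. The other members are given by counts, ranges and single values, and list genes by counts, naming up to 4 called genes per list and comparison with the smallest adjusted p.

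Groups came from the labels, which tie both segments to a mouse. Same-mouse libraries deviated together, with correlations of 0.16 to 0.39 across genes in all 8 mice. Pairs from different mice of the same age ran from -0.37 to 0.23, so the ranges overlapped. The mouse was tried as a block for the region comparisons. Other alternatives were DESeq2 1.42.0, other scalings and filters, sex as a covariate, each library left out, and, chosen after seeing the data, a correction for GC content. That correction removed each library's GC trend around its own group mean and kept the group means. GC content came from GENCODE transcripts. The fit was tested on simulated data. Replicates differed by more than sampling noise. Depth was 12159237 to 25947276 counts per library.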

Additional observations from a re-analysis of the deposited data

Results flagged for a closer look

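The regional difference changed with age, by the interaction of region and age in edgeR, for 4 members. The log2 difference between the P6 and P36 regional contrasts was 3.42 for Ap1s3 (adjusted p = 5.88e-06), 1.12 for Clint1 (adjusted p = 0.000899), 2.85 for Epn3 (adjusted p = 0.0187) and -0.99 for Exoc6b (adjusted p = 0.0136). All 4 P6 mice had the higher level of Ap1s3, Clint1 and Epn3 in the jejunum and of Exoc6b in the ileum.

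Within groups of 4 libraries, 1 library lay far from the other 3 for 6 of the 44 combinations of the 11 named members and 4 groups, where chance flags about 1 in 20 groups. For 3 of them the library was P6 ileum replicate 4, at 246 CPM for Ap2a2, 9.51 CPM for Ap5z1 and 75.5 CPM for Exoc6b. The others were P6 jejunum replicate 1 for Ap1s3 (149 CPM), P36 ileum replicate 1 for Epn3 (2.65 CPM) and P36 ileum replicate 4 for Exoc6 (30.0 CPM).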

How the results depend on the processing

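The P6 regional calls of Ap1s3, Clint1, Exoc3l4, Exoc6b and Epn3 and the interaction calls of Ap1s3, Clint1 and Exoc6b kept their direction and their side of the threshold in every alternative that gave them a fitted value. The counts of members called were less stable, and those after the GC correction still carry P6 ileum replicate 4 in the P6 ileum mean. Against 8 in the P6 region comparison, scaling by library totals gave 14 (31.8%, against 37.0% of all genes) and the GC correction 20 (45.5%, against 40.0%). The GC correction with the mouse as a replicate block gave 21 (47.7%, against 44.7%) and the fold threshold 3 (6.82%, against 6.5%). Against 2 at P36, the 8 libraries alone gave 4 (9.09%, against 23.8% of all genes) and the GC correction 4 (9.09%, against 24.6%). That correction with the block gave 7 (15.9%, against 31.0%). The fold threshold gave 0, against 3.6% of all genes (edgeR, where without that limit 3 had an unadjusted p below 0.05 and DESeq2 called 3). With age, the fold threshold gave 3 in each region (6.82%, against 16.4% of all genes). In the ileum, against 16, the GC correction gave 26 (59.1%, against 65.3%) and the 8 ileum libraries alone 9 (20.5%, against 42.7%). Against 4 for the interaction, the GC correction gave 14, also with the block (31.8% in both, against 21.6% of all genes, and 26.5% with the block). Over all genes called, the GC correction, without and with the block, gave 5369 and 6007 at P6 against 3484, 3307 and 4158 at P36 against 2163, and 2903 and 3565 for the interaction against 1167. The fold threshold gave 873 at P6, 484 at P36, 2209 with age in the jejunum against 6927 and 2204 in the ileum against 7475. Without P6 ileum replicate 4 there were 3922 at P36 and 1912 for the interaction, and without P36 jejunum replicate 1 there were 1418 at P36. The mouse as a replicate block alone gave 7 members at P6 (15.9%, against 27.0% of all genes) and 2 at P36 (4.55%, against 18.1%). For the interaction it gave 4 (9.09%, against 9.64%). Ap2b1 at P6 was the only call it removed. Leaving out each library in turn gave 6 to 11 members at P6 (13.3 to 24.4%, against 19.0 to 32.6% of all genes). At P36 it gave 0 to 5 (0 to 11.1%, against 10.3 to 28.7%). With age it gave 14 to 24 in the jejunum (31.1 to 53.3%, against 45.9 to 62.6%) and 14 to 24 in the ileum (31.1 to 53.3%, against 51.0 to 62.0%). For the interaction it gave 3 to 6 (6.67 to 13.3%, against 6.1 to 14.0%). The P36 count was 0 without P36 jejunum replicate 1 or 2 or P36 ileum replicate 4, where 10.3, 11.5 and 11.4% of all genes were called. It was 1 (2.22%) without P36 jejunum replicate 3 or P36 ileum replicate 2, against 13.4 and 11.3%. It was 5 (11.1%, against 28.7%) without P6 ileum replicate 4. The cause was not tested.

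Library totals moved the median log2 fold change of all genes by -0.29 at P6, -0.14 at P36 and -0.15 in the interaction. Signs turned only where no call had been made. Library totals gave -0.0326 for Ap1m2, -0.0687 for Ap3m2 and -0.26 for Exoc6 at P6, -0.0224 for Exoc6 at P36 and -0.0520 for Ap5z1 in the interaction. Clint1 with age in the ileum came to 0.011 under median-of-ratios scaling, 0.0068 without a filter, 0.011 in DESeq2 and 0.0039 with the 8 libraries. Leaving out a library gave -0.13 to 0.059 for it, -0.13 to 0.022 for Epn2 and -0.11 to 0.25 for Exoc6 at P6, and -0.20 to 0.31 for Ap5z1 and -0.23 to 0.13 for Exoc6 in the interaction. Depth limited Epn3 at P6, with 3 reads in the ileum, and Ap3b2 and Exoc3l.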
